A study of Mus musculus with 6 samples.

Results

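CXC chemokines are small secreted or membrane-anchored proteins that guide leukocytes by binding receptors of the CXCR family, and 9 of their genes were followed here: Cxcl13, Cxcl1, Cxcl2, Cxcl9, Cxcl10, Cxcl12, Cxcl14, Cxcl16 and Pf4 (also called Cxcl4). They were taken by gene name from a deposited table of 54532 genes, in which each of the 9 names occurred once. The libraries were made from total RNA of F4/80-positive cells of the peritoneal cavity, sorted by reporter colour: EGFP cells are named p16High and tdTomato cells p16Low, with 3 libraries of each. Every library came from C57BL/6 mice aged 12 months that carried p16-Cre together with Rosa26-mtmg, a red-to-green reporter, so both fractions shared the same alleles and age, and none of these 6 libraries came from mice without Cre. In such a reporter a cell loses tdTomato and gains EGFP once Cre has acted, so EGFP records past as well as present activity of the driver. Separate or pooled animals for the 3 libraries of a fraction are not told apart by the labels, and so the p-values given reflect nothing beyond library-to-library spread, which may be technical.

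Cxcl13 binds Cxcr5 and attracts B cells; in the body cavities it is known as a macrophage and stromal product that brings in B-1 cells. Pf4 is best known as a heparin-binding protein stored in platelet granules. Cxcl1 and Cxcl2 act on Cxcr2 of neutrophils, Cxcl9 and Cxcl10 act on Cxcr3 of T and NK cells after interferon, Cxcl12 acts on Cxcr4 and the scavenging receptor Ackr3, and Cxcl16 is a membrane-anchored ligand of Cxcr6 that can be shed by the proteases Adam10 and Adam17. Cxcl14 is best known from epithelial tissues.

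The depth implied by the FPKM values (fragments scaled by transcript length and library depth) was 16.52 M to 19.57 M reads in the p16High libraries and 18.46 M to 20.87 M reads in the p16Low libraries. Cdkn2a, the gene whose promoter defines the sort, stood at 7.01, 7.84 and 5.48 FPKM in p16High, against 0.620, 0.933 and 1.71 FPKM in p16Low. p16Low replicate 2 stood apart from the other 5 libraries on the first principal component of log2 expression, at 48.87 against -15.89 to -4.70, and calls that depend on it are given both ways below. Mitochondrial reads made 0.545% to 0.648% of reads in p16High libraries and 0.670% to 1.08% in p16Low libraries, highest in p16Low replicate 2; the groups did not overlap, and the part of this in any difference below was not tested. Of 10895 genes tested with limma, 97 passed a Benjamini-Hochberg adjusted p of 0.05, and without that library 301 passed. Genes of large peritoneal macrophages, the resident macrophages of the cavity, were abundant in both fractions, for example Adgre1, which encodes F4/80, at 2591 ± 163 FPKM in p16High libraries and 1979 ± 644 FPKM in p16Low libraries (SD, n = 3 each).

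Of the 9 genes, 6 lie on chromosome 5. Relative to the start of Cxcl13, Pf4 lies at -5.18 Mb, Cxcl1 at -5.07 Mb, Cxcl2 at -5.05 Mb, Cxcl9 at -3.64 Mb and Cxcl10 at -3.61 Mb, in coordinates that match the GRCm38 assembly. Cxcl13 (ENSMUSG00000023078) spans 95956951 to 95961068 and Pf4 (ENSMUSG00000029373) 90772435 to 90773383, both on the plus strand. Cxcl12, Cxcl16 and Cxcl14 lie on chromosomes 6, 11 and 13. RefSeq promoter sequences (GRCm38.p6) were found for 8 of the 9, the exception being Cxcl16. The 250 bases before the RefSeq start are shown for the 2 abundant ligands, which differed from each other in their change. They are also shown for the neighbours Cxcl1 and Cxcl2, which had smaller changes that did not pass. All 4 are on the plus strand and written 5′ to 3′. The RefSeq start lies 12 bases before the gene start in the table for Cxcl13, 4 bases after it for Cxcl1, 28 bases after it for Cxcl2, and at it for Pf4; positions below count from the RefSeq start. Capitals mark matches, on either strand, to 5 short motifs. These are GGNNTTTCC for the kB sites of NF-kB, TATAAA for the TATA box, AGATAA for the sites of Gata6 and its relatives, GAGGAAG for those of PU.1, and GAAANNGAA for the interferon-stimulated response element.
Cxcl13, chr5:95956689-95956938: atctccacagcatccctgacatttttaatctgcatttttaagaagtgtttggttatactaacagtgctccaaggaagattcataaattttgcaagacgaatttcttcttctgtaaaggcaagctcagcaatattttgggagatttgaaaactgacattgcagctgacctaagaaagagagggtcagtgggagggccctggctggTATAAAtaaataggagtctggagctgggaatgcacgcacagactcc
Pf4, chr5:90772185-90772434: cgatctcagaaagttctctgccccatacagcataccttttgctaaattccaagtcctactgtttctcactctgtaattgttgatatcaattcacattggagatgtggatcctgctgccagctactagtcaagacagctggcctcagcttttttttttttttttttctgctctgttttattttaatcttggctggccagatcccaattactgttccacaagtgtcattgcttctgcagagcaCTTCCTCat
Cxcl1, chr5:90890995-90891244: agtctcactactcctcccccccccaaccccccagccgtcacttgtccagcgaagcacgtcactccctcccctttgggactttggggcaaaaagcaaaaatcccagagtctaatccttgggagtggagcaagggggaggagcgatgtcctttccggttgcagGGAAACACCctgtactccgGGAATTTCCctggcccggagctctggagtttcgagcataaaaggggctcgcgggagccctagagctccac
Cxcl2, chr5:90903649-90903898: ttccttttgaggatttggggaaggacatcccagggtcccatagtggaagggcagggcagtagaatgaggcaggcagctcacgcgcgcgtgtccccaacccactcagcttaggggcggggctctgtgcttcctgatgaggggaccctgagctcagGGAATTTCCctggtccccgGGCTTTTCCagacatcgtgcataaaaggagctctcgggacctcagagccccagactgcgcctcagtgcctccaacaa

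Cxcl13 held 1 TATA box, 46 to 41 bases before its start, and Pf4 held 1 PU.1 motif on the opposite strand, 9 to 3 bases before its start. Cxcl1 held 2 kB motifs and Cxcl2 held 2, and both genes carried the same letters GGAATTTCC, at 70 to 62 bases before the start in Cxcl1 and at 96 to 88 bases in Cxcl2. No motifs overlapped in these 4 windows. Among those not shown, Cxcl9 and Cxcl10 also held the kB motif, and Cxcl9, Cxcl10 and Cxcl14 held the interferon-stimulated response element. Cxcl9 held a TATA box as well, Cxcl10 held the Gata6 motif, and Cxcl12 had 0 matches. Of 32851 RefSeq promoter windows of this length, 4.93% held the kB motif, 12.4% the TATA box, 9.99% the Gata6 motif, 10.6% the PU.1 motif and 7.13% the interferon-stimulated response element. A match describes letters only and was not tested as a binding site.

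The libraries held a few CXC ligands in very unequal amounts, and the order of the 7 ligands above 1 FPKM was the same in all 6 libraries: Pf4, Cxcl13, Cxcl16, Cxcl2, Cxcl1, Cxcl12 and Cxcl14. Pf4 ranked between 13 and 19 among all genes in p16High and between 9 and 11 in p16Low. Cxcl13 ranked 38, 39 and 37 in p16High, against 71, 63 and 76 in p16Low. Cxcl16 averaged 35.1 FPKM in p16High libraries and 31.5 FPKM in p16Low libraries, and so the third ligand in the order was present at a small fraction of the second. The ranges of adjacent ligands over the 6 libraries did not overlap. Cxcl9 and Cxcl10 were at most 0.356 FPKM in every library and changed places between libraries.

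**Figure D1:**
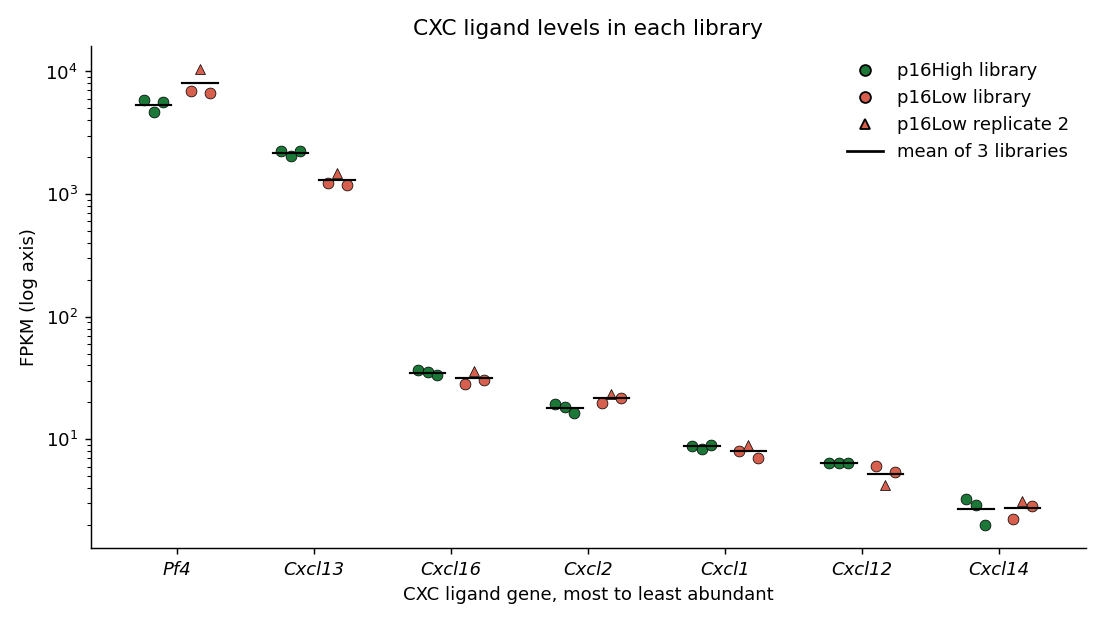
FPKM (log axis) of the 7 CXC ligands that reached 1 FPKM in 3 libraries or more; each point is 1 library, triangles are p16Low replicate 2 and bars are means of 3 libraries. The p16High points of Cxcl13 all lie above the p16Low points and those of Pf4 all lie below them, while the groups of Cxcl1, Cxcl14 and Cxcl16 overlap.

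Cxcl13 rose in p16High. It stood at 2261, 2060 and 2229 FPKM in p16High replicates 1 to 3, against 1229, 1474 and 1189 FPKM in p16Low replicates 1 to 3. All 3 p16High libraries were above all 3 p16Low libraries, and p16Low replicate 2 was the highest of its group. These values rest on 42335 to 49260 reads per library in p16High and 26097 to 35374 in p16Low, so counting error is small beside the spread between libraries. The means were 2183 ± 108 FPKM in p16High libraries and 1297 ± 154 FPKM in p16Low libraries (SD, n = 3 each), a ratio of 1.68. The log2 fold change, taken on log2(FPKM + 1) as p16High minus p16Low, was 0.76 (SE 0.126, 95% interval 0.47 to 1.04, adjusted p = 0.0351 by limma over all tested genes). In bulk libraries a larger share of cells that make a transcript and more of it per cell cannot be told apart.

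The direction of the Cxcl13 difference was the same in each of 14 fits (that reported and 13 alternatives), with log2 fold changes of 0.69 to 0.85, and the threshold was passed in 6 of them. Without p16Low replicate 2 the log2 fold change was 0.85 (95% interval 0.71 to 0.99, adjusted p = 6.04e-06 by limma). Without any 1 of the other 5 libraries it did not pass, and over all 14 fits the adjusted p ran to 0.225.

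Pf4, the most abundant ligand, lay on the other side. It stood at 5824, 4635 and 5631 FPKM in p16High, against 6971, 10522 and 6679 FPKM in p16Low. Every p16High library was below every p16Low library, and p16Low replicate 2 was far above the rest. The means were 5364 ± 638 FPKM in p16High libraries and 8057 ± 2140 FPKM in p16Low libraries (SD, n = 3 each), so that the p16Low mean was 1.502 times the p16High mean. The log2 fold change of -0.56 (SE 0.191, 95% interval -0.996 to -0.13, unadjusted p = 0.0167) did not pass over all genes in limma (adjusted p = 0.469). Without p16Low replicate 2 it was -0.35 (95% interval -0.55 to -0.16, adjusted p = 0.0535 by limma), and it was negative in each of 14 fits and past the threshold in none.

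Platelet genes were checked beside Pf4, since platelets carry it. Of the platelet and megakaryocyte genes, Gp1bb, Gp6, Treml1 and Tubb1 were at 0 in every library, and Ppbp, the platelet CXC ligand next to Pf4, was at most 0.150 FPKM. The list summed to 6.51 to 7.35 FPKM in p16High libraries and 3.72 to 6.38 FPKM in p16Low libraries, of which Clec1b, a lectin receptor of platelets and some myeloid cells, made most. Clec1b stood at 6.36, 6.94 and 7.04 FPKM in p16High, against 3.33, 5.92 and 3.97 FPKM in p16Low, and it did not pass (adjusted p = 0.564 by limma) except without p16Low replicate 2 (adjusted p = 0.029). Apart from Clec1b, platelet genes were near 0 in libraries where Pf4 stood at 4635 FPKM or more. Which cells the Pf4 reads came from was not tested.

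Cxcl13 and Pf4 together made nearly all of the CXC ligand signal, and their proportions differed between the fractions. Over the 15 CXC ligands in the table (the 9 and Cxcl3, Cxcl5, Cxcl11, Cxcl15, Cxcl17 and Ppbp), the sum was 8161, 6766 and 7928 FPKM in p16High, against 8265, 12072 and 7936 FPKM in p16Low. Cxcl13 made 27.7%, 30.4% and 28.1% of that sum in p16High, against 14.9%, 12.2% and 15.0% in p16Low. The 13 ligands other than Cxcl13 and Pf4 made 0.852% to 1.06% of it in p16High and 0.631% to 0.853% in p16Low. The ratio of Pf4 to Cxcl13 was 2.58, 2.25 and 2.53 in p16High, against 5.67, 7.14 and 5.62 in p16Low, with no overlap.

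**Figure D2:**
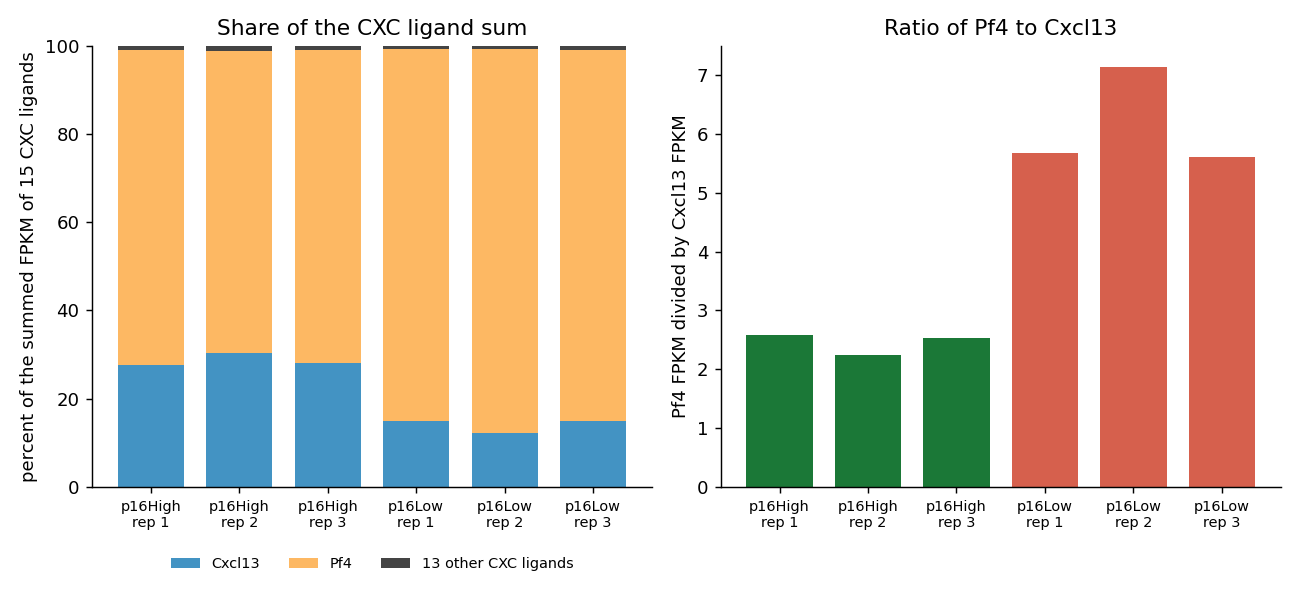
Left, share of the summed FPKM of 15 CXC ligands taken by Cxcl13, Pf4 and the 13 others in each library; right, FPKM of Pf4 divided by that of Cxcl13. Cxcl13 takes 27.7% to 30.4% in p16High and 12.2% to 15.0% in p16Low, and the ratio stays between 2.25 and 2.58 in p16High and between 5.62 and 7.14 in p16Low.

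The remaining ligands showed no change that passed. Of the 9 genes, 7 were tested and 1 passed, against 0.890% of all tested genes in either direction and 0.174% in the direction of higher in p16High. That 1 was Cxcl13, the gene the set was named for, so the count does not bear on the family beyond Cxcl13. Without p16Low replicate 2 the count was again 1, against 2.76% of all genes, and 0 of the 7 fell, against 1.87% of all genes. The median log2 fold change of the 7 was 0.12, beside 0.05 over all tested genes. Of the 7, 4 had no overlap between the groups (Cxcl13, Pf4, Cxcl2 and Cxcl12), against 15.9% of all tested genes, and of these Cxcl13 and Cxcl12 were higher in p16High, against 8.40% of all tested genes.

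Among the neutrophil attractants, Cxcl2 stood at 19.5, 18.3 and 16.5 FPKM in p16High, against 19.9, 23.3 and 21.7 FPKM in p16Low. Every p16High library was below every p16Low library, by little between p16High replicate 1 and p16Low replicate 1. Its log2 fold change was -0.25 (95% interval -0.58 to 0.09, adjusted p = 0.747 by limma). Cxcl1 stood at 8.90, 8.39 and 9.004 FPKM in p16High, against 8.06, 8.99 and 7.03 FPKM in p16Low, and the groups overlapped through p16Low replicate 2. Its log2 fold change was 0.12 (95% interval -0.25 to 0.49, adjusted p = 0.835 by limma).

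Cxcl12, the ligand of Cxcr4, was even across p16High and uneven across p16Low. It stood at 6.40, 6.36 and 6.39 FPKM in p16High, against 6.05, 4.21 and 5.44 FPKM in p16Low. The lowest value was that of p16Low replicate 2, and the groups did not overlap. The log2 fold change was 0.26 (95% interval -0.15 to 0.66, adjusted p = 0.752 by limma), and 0.13 without p16Low replicate 2. Stromal and mesothelial cells are common sources of Cxcl12, and 8 of 15 of their genes were at 0 in every library (Msln, Upk3b, Wt1, Krt8, Col1a2, Col3a1, Lum and Pdgfra). The list summed to 0.0664 to 0.586 FPKM in p16High libraries and 0.0622 to 0.285 FPKM in p16Low libraries. The cell source of the Cxcl12 reads was not tested.

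Cxcl16 stood at 36.5, 35.1 and 33.6 FPKM in p16High, against 28.4, 36.0 and 30.2 FPKM in p16Low. p16Low replicate 2 lay among the p16High values and the other 2 p16Low libraries below them. The log2 fold change was 0.16 (95% interval -0.17 to 0.48, adjusted p = 0.78 by limma), and 0.25 without p16Low replicate 2 (95% interval 0.04 to 0.46, adjusted p = 0.292). Cxcl14 stood at 3.27, 2.92 and 1.99 FPKM in p16High, against 2.24, 3.14 and 2.86 FPKM in p16Low, on 54 to 108 reads per library. Its groups overlapped fully, with a log2 fold change of -0.02 (95% interval -0.48 to 0.45, adjusted p = 0.979 by limma).

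The interferon-induced ligands were at the edge of detection and did not enter the test. Cxcl9 had 11, 7 and 1 reads in p16High, against 5, 2 and 0 reads in p16Low, and the groups overlapped. Cxcl10 had 2, 0 and 0 reads in p16High, against 2, 7 and 8 reads in p16Low. Pooled over libraries and corrected for depth, Cxcl9 was 2.93 times as high in p16High as in p16Low (exact 95% interval 1.18 to 8.26) and Cxcl10 0.127 times as high (exact 95% interval 0.0143 to 0.536). These intervals cover counting error only. In limma with no filter, the adjusted p was 0.822 for Cxcl9 and 0.702 for Cxcl10.

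**Figure D3:**
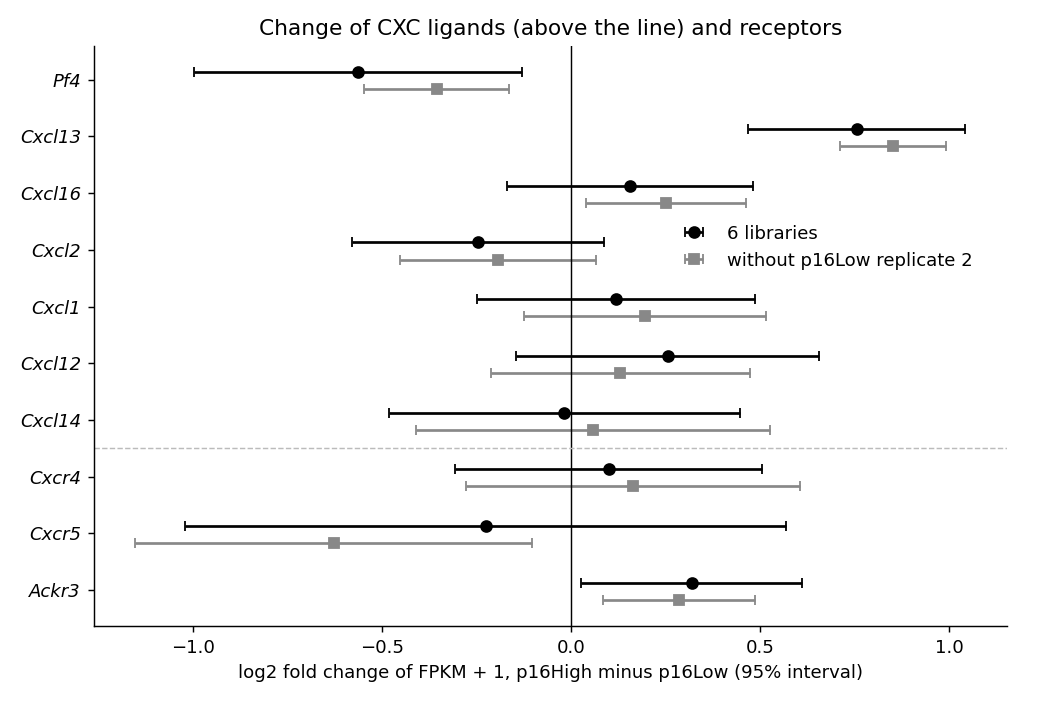
Log2 fold change (p16High minus p16Low, on log2(FPKM + 1)) with its 95% interval for the 7 tested CXC ligands, ordered by level, and the 3 tested receptors, with 6 libraries (circles) and without p16Low replicate 2 (squares). Cxcl13 at 0.76 and Pf4 at -0.56 lie on opposite sides of 0, and the other 5 ligands lie between -0.25 and 0.26 with 6 libraries.

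Whether the other ligands shared the Cxcl13 difference was tested directly, by fitting each gene's log2 value minus that of Cxcl13 in the same library. Of the 6 other tested ligands, 5 had a lower change than Cxcl13 at an adjusted p under 0.05, against 60.8% of all other tested genes (60.9% in either direction), so a lower change than that of Cxcl13 was common among genes at large. All such differences contain the same 6 Cxcl13 values and stand or fall with them. The difference was largest for Pf4, at -1.32 (95% interval -1.62 to -1.02, adjusted p = 0.00166 by limma), and next for Cxcl2, at -1.002 (95% interval -1.39 to -0.61, adjusted p = 0.00288). Those 2 passed in each of the 13 fits run for this comparison, with the adjusted p at most 0.0173 for Pf4 and 0.0219 for Cxcl2.

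Cxcl14, Cxcl1 and Cxcl16 differed from Cxcl13 by -0.77, -0.64 and -0.60 (adjusted p = 0.0192, 0.0169 and 0.0109 by limma), and they passed in 8 of 12, 9 of 13 and 10 of 13 fits. Cxcl12 differed by -0.50 (95% interval -1.05 to 0.05, adjusted p = 0.0922 by limma), so a rise equal to that of Cxcl13 lay within its interval. Without p16Low replicate 2 all 6 passed, Cxcl12 with a difference of -0.72 (95% interval -1.10 to -0.34, adjusted p = 0.000921), against 97.0% of all genes.

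Set against genes of large peritoneal macrophages, the Cxcl13 difference was of the size of that of Vsig4 and below that of Marco. Vsig4, a complement receptor of resident macrophages, differed from Cxcl13 by 0.01 (95% interval -0.35 to 0.37, adjusted p = 0.954 by limma), and by -0.16 without p16Low replicate 2 (adjusted p = 0.0802). Marco, a scavenger receptor, rose by 0.85 more than Cxcl13 (95% interval 0.46 to 1.24, adjusted p = 0.00513). The list summed to 17654 to 18447 FPKM in p16High libraries and 12606 to 17287 FPKM in p16Low libraries. Of its 12 genes, 2 rose, Vsig4 and Marco, against 0.174% of all tested genes. Marco passed in every fit (highest adjusted p = 0.0301), while the adjusted p of Vsig4 ran to 0.184. Of the 12, 6 had a lower change than Cxcl13, against 60.8% of all genes, and 1, Marco, a higher one; without p16Low replicate 2, 10 had a lower change, against 97.0% of all genes. Icam2, an adhesion molecule, stood at 1910 ± 48.3 FPKM in p16High libraries and 1891 ± 174 FPKM in p16Low libraries (SD, n = 3 each) and differed from Cxcl13 by -0.74 (adjusted p = 0.00231). Gata6, the transcription factor of these macrophages, differed from Cxcl13 by -0.57 (adjusted p = 0.0452).

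**Figure D4:**
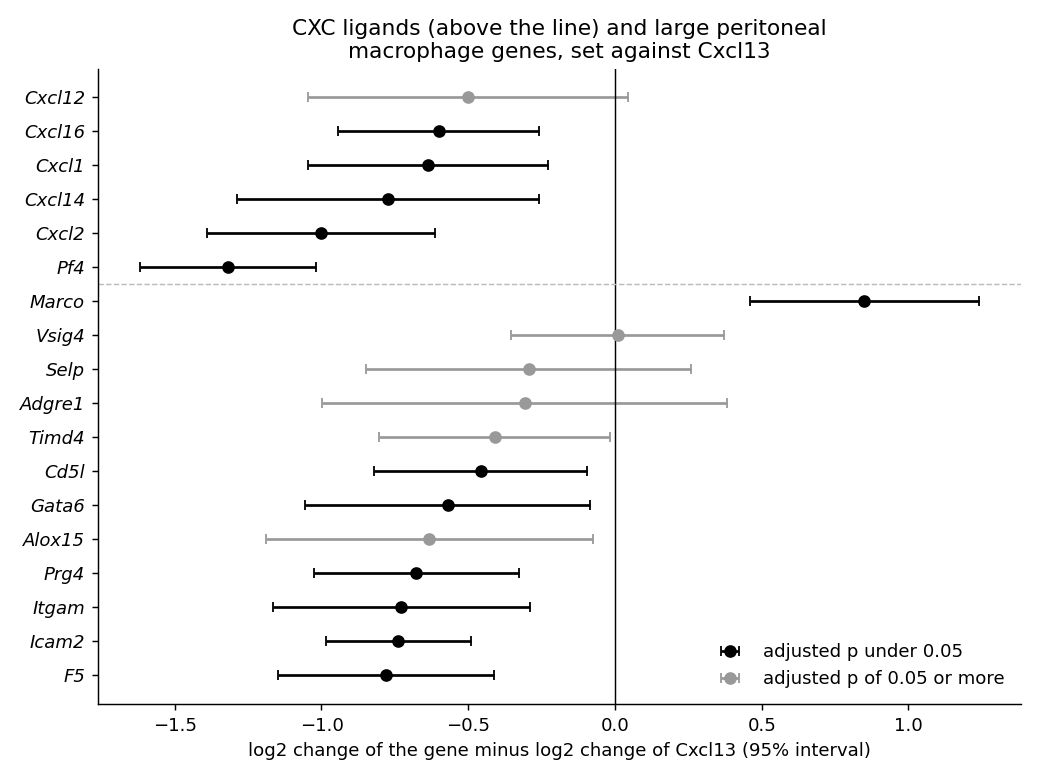
Log2 change of each gene minus the log2 change of Cxcl13, with its 95% interval, for 6 CXC ligands and 12 genes of large peritoneal macrophages; black marks an adjusted p under 0.05. The ligands run from -0.50 for Cxcl12 to -1.32 for Pf4, Vsig4 lies at 0.01 and Marco at 0.85.

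Markers of other cells are given beside the Cxcl13 result, and the summed level differed without overlap between the groups for only some of the lists. Genes of small peritoneal macrophages summed to 521 to 546 FPKM in p16High libraries and 1134 to 1354 FPKM in p16Low libraries. Of 8 tested, 3 fell (the MHC class II genes H2-Aa and H2-Ab1 and the invariant chain gene Cd74), against 0.716% of all tested genes. Limma-voom, which took only genes with recovered whole reads, called 0 of this list. Without p16Low replicate 2, 6 fell, against 1.87% of all tested genes. B-cell genes summed to 68.5 to 94.3 FPKM in p16High libraries and 99.5 to 117 FPKM in p16Low libraries. With limma 0 of the 7 tested passed, against 0.890% of all tested genes. With limma-voom also 0 passed. In limma 5 reached an unadjusted p below 0.05, and the share of all tested genes below that value is not given here. Without p16Low replicate 2, 2 of the 7 fell (Cd79a and Ms4a1), against 1.87% of all tested genes. In the dendritic cell list, Cd209a stood at 18.2 ± 4.63 FPKM in p16High libraries and 8.36 ± 0.848 FPKM in p16Low libraries (SD, n = 3 each; adjusted p = 0.073 by limma, and 0.00694 without p16Low replicate 2), while Flt3 was at most 0.0159 FPKM. Mast cell genes summed to 1.03 to 3.50 FPKM in p16High libraries and 0 to 0.235 FPKM in p16Low libraries, with Kit and Ms4a2 at 0. Neutrophil genes summed to 90.2 to 93.7 FPKM in p16High libraries and 76.1 to 97.4 FPKM in p16Low libraries. This sum was not spread over the list: 5 of its 10 genes were at 0 in every library (S100a9, Ly6g, Cxcr2, Ltf and Ngp). Csf3r was the most abundant, and Mmp8, next after Csf3r and S100a8, was at most 0.782 FPKM. T and NK cell genes summed to at most 0.401 FPKM. The part of these cells in the Cxcl13 difference was not tested.

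The receptors were scarce apart from 1. Of 8 CXC receptor genes, 3 were tested and 0 passed in limma, against 0.890% of all tested genes. In limma-voom 0 passed as well, and 1, Ackr3, reached an unadjusted p below 0.05 in limma. Cxcr1, Cxcr2 and Ackr1 were at 0 in every library. Ackr3, which scavenges Cxcl12, stood at 47.8, 47.9 and 53.6 FPKM in p16High, against 41.2, 37.7 and 40.0 FPKM in p16Low. Its groups did not overlap, as for 15.9% of all tested genes (log2 fold change 0.32, 95% interval 0.03 to 0.61, adjusted p = 0.633 by limma). Cxcr5, the receptor of Cxcl13, stood at 1.96, 1.39 and 0.772 FPKM in p16High, against 2.85, 0.558 and 2.34 FPKM in p16Low. Its groups overlapped only through p16Low replicate 2 (log2 fold change -0.23, adjusted p = 0.848 by limma; -0.63 and 0.285 without that library). Cxcr4 stood at 2.30, 2.27 and 2.15 FPKM in p16High, against 2.24, 2.30 and 1.58 FPKM in p16Low (adjusted p = 0.87). Cxcr3 and Cxcr6, the receptors of Cxcl9 and Cxcl10 and of Cxcl16, were at most 0.0885 and 0.277 FPKM.

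Genes that act on CXC ligands or are known to induce them did not pass either. Tested were 5 of 9 genes for shedding and binding of ligands, 7 of 9 for lymphotoxin and noncanonical NF-kB, 8 of 9 for canonical NF-kB with its feedback, and 5 of 6 for other signals for Cxcl13. Of the genes tested in each of these 4 lists 0 passed in limma, against 0.890% of all tested genes. With so small a share, a count of 0 does not set lists this short apart. In limma-voom 0 passed, and in limma 0 reached an unadjusted p below 0.05. The untested gene of the last list, Il10, an anti-inflammatory cytokine named here after its values were seen, stood at 1.29, 0.663 and 1.99 FPKM in p16High, against 0.662, 0.110 and 0.379 FPKM in p16Low. Its groups did not overlap, though p16High replicate 2 and p16Low replicate 1 were nearly equal, and in limma with no filter its adjusted p was 0.747 (unadjusted p = 0.0282). Ltbr, the lymphotoxin beta receptor, stood at 70.2 ± 7.13 FPKM in p16High libraries and 57.0 ± 4.13 FPKM in p16Low libraries (SD, n = 3 each; adjusted p = 0.72 by limma). Its ligand genes Lta and Ltb were at most 0.131 and 0.702 FPKM. Nfkbia, an NF-kB target and inhibitor, stood at 452 ± 32.4 FPKM in p16High libraries and 453 ± 79.9 FPKM in p16Low libraries (SD, n = 3 each). Ifngr1, a chain of the interferon gamma receptor, stood at 234 ± 8.34 FPKM in p16High libraries and 198 ± 44.6 FPKM in p16Low libraries (SD, n = 3 each; adjusted p = 0.751).

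Adam10 and Adam17, which shed Cxcl16, showed how p16Low replicate 2 differed. Adam10 stood at 66.5, 66.1 and 62.3 FPKM in p16High, against 70.1, 29.8 and 81.7 FPKM in p16Low. Adam17 stood at 30.5, 31.3 and 33.8 FPKM in p16High, against 38.4, 14.4 and 34.4 FPKM in p16Low. In both, p16Low replicate 2 was the lowest of the 6 libraries. Immediate early genes, which rise during cell handling and accompany Cxcl1 and Cxcl2 in activated macrophages, summed to 901 to 994 FPKM in p16High libraries and 858 to 938 FPKM in p16Low libraries. Of the 9 tested, 0 passed in limma, against 0.890% of all tested genes, so this count does not set them apart. In limma-voom 0 passed, and in limma 0 reached an unadjusted p below 0.05.

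On chromosome 5, 17 other genes of the table had an end within 500 kb of Cxcl13, and 5 of them were above 0 in at least 1 library. The 2 that were tested did not pass, where 0.890% of all tested genes did. Cnot6l, a subunit of the deadenylase complex 109 kb away, stood at 34.3, 37.6 and 32.8 FPKM in p16High, against 38.2, 33.0 and 37.4 FPKM in p16Low (log2 fold change -0.05, adjusted p = 0.917 by limma). Mrpl1, a mitochondrial ribosomal protein gene 248 kb away, stood at 8.18, 11.7 and 10.6 FPKM in p16High, against 9.67, 9.53 and 9.59 FPKM in p16Low (log2 fold change 0.06, adjusted p = 0.924). The groups overlapped at both genes.

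The genes whose pattern over the 6 libraries was most like that of Cxcl13 were found by the root mean square difference of log2(FPKM + 1), centred on each gene's mean, among 5493 named genes averaging at least 10 FPKM. They were the histone gene Hist1h2bc (0.112), the transcription regulator Tcim (0.136), the CDK inhibitor gene Cdkn2b (0.140), the lipid acyltransferase gene Agpat2 (0.171) and Vsig4 (0.174). The like distance from Cxcl13 was 0.307 for Cxcl16, 0.322 for Cxcl1, 0.336 for Cxcl12, 0.431 for Cxcl14, 0.511 for Cxcl2 and 0.672 for Pf4. Hist1h2bc stood at 31.6, 32.3 and 33.4 FPKM in p16High, against 17.1, 25.9 and 17.002 FPKM in p16Low, with p16Low replicate 2 the highest of its group, as for Cxcl13. Histone genes share sequence, so reads of Hist1h2bc are uncertain. These distances describe 6 libraries and carry no test.

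**Figure D5:**
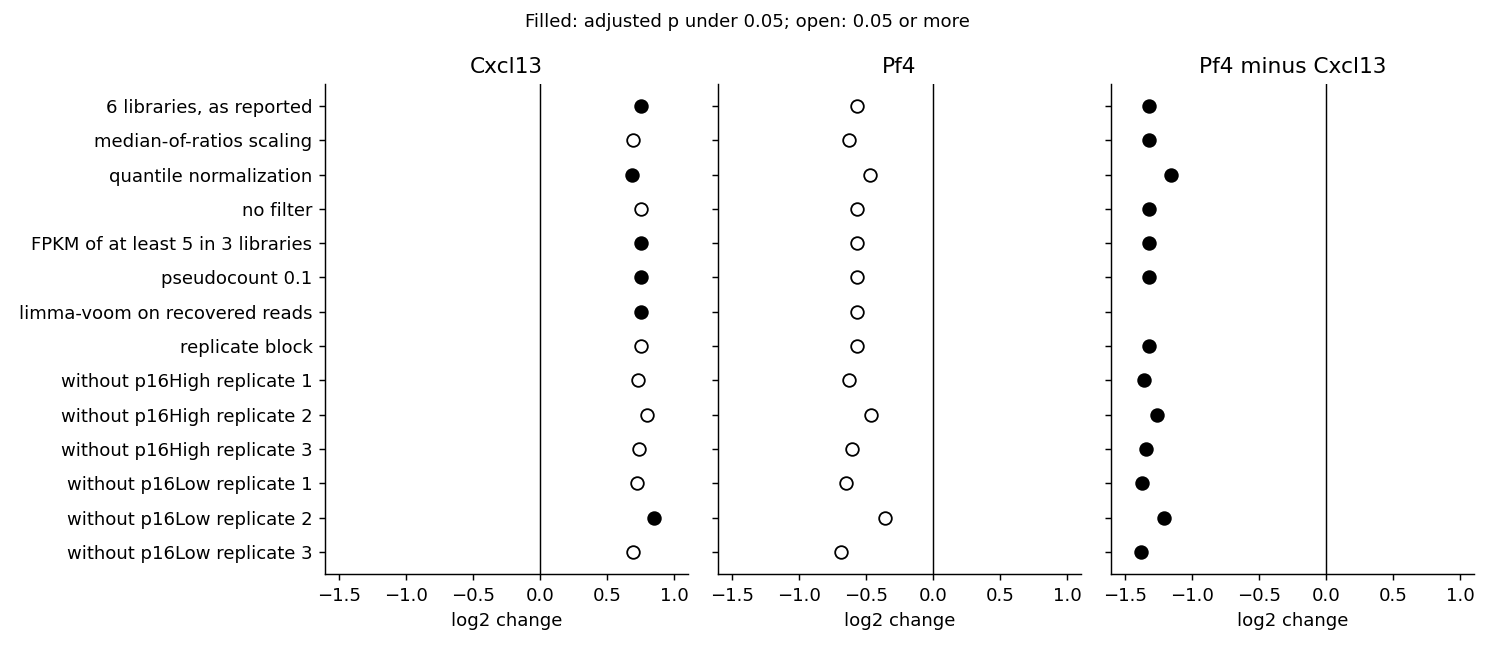
Log2 change of Cxcl13, of Pf4 and of Pf4 minus Cxcl13 under each setting; filled points have an adjusted p under 0.05 and open points 0.05 or more. Every point of Cxcl13 lies right of 0 and 6 of 14 are filled, every point of Pf4 lies left of 0 and none is filled, and all 13 points of their difference are filled; limma-voom was not run for the difference.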

How the data were processed

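The deposited table gives FPKM values made by the authors; per the submitters' processing notes the tools included HTSeq 0.6.1, TopHat2 2.0.12 and Bowtie2 2.2.3, without their roles. Build, annotation and strand setting were not given in the sources used here. Gene lengths of the deposited table were used only to rescale levels. Of 54532 IDs, 54494 were in GENCODE M21 (GRCm38), 98.3% of them with the same start and end. The FPKM values were whole reads (within 0.001) in every library for 96.2% of the 22566 genes above 0, the 9 CXC ligands included, when the mean annotated transcript length, rounded down, was used as the length. At these depths 3 reads correspond to 0.144 to 0.182 CPM.

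Genes that reached 1 FPKM in 3 libraries or more entered limma 3.58.1 (R 4.3.3) as log2(FPKM + 1), with group as the only term and a trended prior; a pseudocount of 1 pulls low genes towards 0. Every adjusted p is from this fit over all tested genes unless stated. A second limma fit used each gene minus Cxcl13. Both were tested on simulated data. Named genes were the 9 ligands, listed genes that passed or were most abundant, neighbours within 500 kb and the 5 nearest patterns; others are list members named as examples after their values were seen. Members and lists were chosen with earlier results of these data known, and some listed genes are not reported here. Alternatives were 2 scalings, 2 filters, a pseudocount of 0.1, limma-voom on recovered reads, a replicate block and each library left out.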

Additional observations from a re-analysis of the deposited data

How the results depend on the processing

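The number of genes changed was 97 and became 58 with a filter of 5 FPKM, 9 with no filter, and 17 to 301 with 1 library left out; limma-voom on recovered reads called 85 and the replicate block 67. The count of CXC ligands changed was 1 and became 0 with median-of-ratios scaling, with no filter and with the replicate block, and 0 to 1 with 1 library left out. For Cxcl13 the log2 fold change was 0.70 with median-of-ratios scaling (adjusted p = 0.16 by limma), 0.76 with no filter (0.201) and 0.76 with the replicate block (0.140), each past no threshold, and 0.70 to 0.85 with 1 library left out. Median-of-ratios scaling moved the median log2 fold change of all genes from 0.05 to -0.00032. The count of CXC ligands that differed from Cxcl13 was 5; it became 2 with the replicate block and 2 to 6 with 1 library left out. It was 7 with no filter, where Cxcl9 and Cxcl10 also entered. Cxcl14, with a log2 fold change of -0.02, ran from -0.12 to 0.13 with 1 library left out and so changed sign. Cxcl14 gives no value under the filter of 5 FPKM, and limma-voom was not run for the differences from Cxcl13. Whether libraries of the same number share animals is not told by the labels. Deviations from the group means correlated at -0.19, -0.17 and 0.01 for numbers 1, 2 and 3, and at -0.20 to 0.24 between unlike numbers. With 3 libraries per group and p16Low replicate 2 far from the rest, these correlations cannot decide whether the numbers pair samples. The cause of the changes between fits was not tested. Depth limits what can be said of Cxcl9 and Cxcl10, at 0 to 11 and 0 to 8 reads per library.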

Other observations

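The remaining CXC ligands of the mouse were near 0 in both fractions. Cxcl5 and Cxcl11 were at 0 in every library. Cxcl3, a neutrophil attractant between Pf4 and Cxcl1 on chromosome 5, was at most 0.136 FPKM, Cxcl17 at most 0.0672 FPKM and Cxcl15 at most 0.07 FPKM. The Pf4 locus therefore placed a gene at 4635 FPKM or more between neighbours near 0, Ppbp at most at 0.150 FPKM and Cxcl3.

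Levels set between genes depend on the length used. With the exon length of the deposited table in place of the mean transcript length, the ratio of Pf4 to Cxcl13 was 1.62, 1.41 and 1.59 in p16High, against 3.56, 4.49 and 3.53 in p16Low, where it had been 2.25 to 2.58 in p16High and 5.62 to 7.14 in p16Low. Mean levels over 6 libraries were 2.40 FPKM for Cxcl12 and 2.47 FPKM for Cxcl14 on that length, in place of 5.81 and 2.74 FPKM, so these 2 ligands changed places in the order. Ratios of FPKM between fractions within a gene do not depend on the length. Log2 fold changes of low genes on log2(FPKM + 1), and the filter of 1 FPKM, do.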
